A study of Mus musculus with 68 samples.

Results

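The cytosolic ribosomal protein genes were followed through the growth plate, the cartilage layer that lengthens long bones. The group was taken as every row of the count table with a symbol of the form Rpl or Rps plus a number or letter, including the stalk genes Rplp0, Rplp1 and Rplp2. Pseudogene rows and the S6 kinase genes were left out. The rule gave 84 of 23420 gene symbols, 52 for proteins of the large subunit and 32 for proteins of the small subunit.

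Mice of mixed background were used, and the labels give no other allele or treatment. Laser capture on stained bone sections took cells from 3 zones, the resting, proliferative and hypertrophic ones. Libraries were prepared with SMART-seq2, which copies whole messenger RNAs into cDNA from very little material, followed by Tn5 tagmentation. Ethanol-fixed sections at postnatal day 2 (P2) gave 9 resting, 8 proliferative and 8 hypertrophic libraries, those at day 28 (P28) gave 8, 9 and 9, and 1 animal at day 3 (P3) gave 1 of each. Xylene-fixed sections at P28 gave 4, 5 and 5. Animals are lettered within each age. Animal D at P2 and animal B at P28 are labelled in the plural and may each be a pool, and animal D at P28 gave both ethanol and xylene sections. Libraries of animals A and B at P28 and of animal C at P2 have labels that end in 1 or 2, which do not say whether these are the same mouse. The resting library of animal G at P2 held both Xist and Y-linked counts, so it may not come from 1 mouse.

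Each cytosolic ribosome carries 1 copy of most of these proteins around the ribosomal RNAs. Their messenger RNAs are among the more abundant transcripts of dividing cells, and many start with a run of pyrimidines, the TOP element, through which the kinase mTOR sets how strongly they are translated. Growth plate chondrocytes divide in columns in the proliferative zone and then enlarge in the hypertrophic zone, where Col10a1 marks them. In mammals most of these genes also have processed pseudogenes, copies of the messenger RNA inserted elsewhere in the genome, which bears on how short reads can be assigned.

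Start sites are shown first, because a pyrimidine run there is the best known shared sequence of the family. The RefSeq windows (GRCm38.p6) cover 15 bases on each side of the annotated start, 5′ to 3′ on the gene's strand, and capitals mark the longest unbroken run of C and T. Rpl4 is shown as the gene with the most counts, Rpl13a and Rpl39 as other abundant genes, and Rps3 as an abundant gene with no long run in its window.
Rpl4 (chr9:64173372-64173401, plus strand): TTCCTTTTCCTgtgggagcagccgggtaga
Rpl13a (chr7:45128731-45128760, minus strand): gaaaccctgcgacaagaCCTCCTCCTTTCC
Rpl39 (chrX:37085208-37085237, minus strand): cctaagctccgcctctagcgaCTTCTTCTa
Rps3 (chr7:99483695-99483724, minus strand): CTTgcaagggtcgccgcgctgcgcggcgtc
The runs in these windows are 11, 13, 8 and 3 bases long. Of the 84 genes, 64 had such a window, and 25 of those (39.1%) held an unbroken run of at least 8 bases of C or T on the gene's strand. Over 27025 genes with a window the share was 11.9%. At a minimum of 10 bases the shares were 26.6% and 5.2%, and the median longest run was 6 bases in the family against 4 over all genes. These matches describe the annotated start, which can lie some bases away from the start used in these cells, and no match says only that the letters are not in this window.

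Paralog pairs come next. The coding sequences of 2 pairs are shown because their members had very unequal counts in the libraries. They come from GENCODE vM21 transcripts on GRCm38, 5′ to 3′, and capitals mark every base that differs within the pair.
Rpl39: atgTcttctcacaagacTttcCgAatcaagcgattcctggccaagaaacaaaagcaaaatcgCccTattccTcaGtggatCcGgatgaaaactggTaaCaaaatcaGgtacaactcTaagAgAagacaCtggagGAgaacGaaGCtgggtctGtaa
Rpl39l: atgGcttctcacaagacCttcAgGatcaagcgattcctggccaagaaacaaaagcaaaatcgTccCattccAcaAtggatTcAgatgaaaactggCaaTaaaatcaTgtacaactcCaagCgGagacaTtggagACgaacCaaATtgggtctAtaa
Rps27: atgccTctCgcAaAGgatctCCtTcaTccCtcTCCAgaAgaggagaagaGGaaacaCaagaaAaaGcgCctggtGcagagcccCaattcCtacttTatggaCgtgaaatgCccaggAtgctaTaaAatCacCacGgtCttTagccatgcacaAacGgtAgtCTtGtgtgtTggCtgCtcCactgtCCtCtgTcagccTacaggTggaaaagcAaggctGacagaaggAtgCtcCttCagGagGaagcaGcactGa
Rps27l: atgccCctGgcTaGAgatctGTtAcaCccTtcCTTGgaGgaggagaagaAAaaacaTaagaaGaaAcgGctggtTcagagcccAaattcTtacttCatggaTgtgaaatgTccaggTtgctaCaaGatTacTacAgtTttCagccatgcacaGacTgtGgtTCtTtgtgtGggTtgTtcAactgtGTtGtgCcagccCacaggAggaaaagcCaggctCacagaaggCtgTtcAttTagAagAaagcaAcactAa
Rpl39, on chromosome X (37082520 to 37085402, minus strand), encodes a very small protein of the exit tunnel of the large subunit. Rpl39l, its paralog on chromosome 16 (10170226 to 10174911, plus strand), is known for its expression in male germ cells. Their 156 coding bases differ at 23 places (85.3% identical). Rps27 (chromosome 3, 90212522 to 90213651, minus strand) and Rps27l (chromosome 9, 66946086 to 66949516, plus strand) encode paralogous zinc-finger proteins of the small subunit, and their 255 coding bases differ at 61 places (76.1% identical). No stretch of 50 bases is shared between the members of either pair.

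Copies elsewhere in the transcriptome set the members apart from each other. For each gene the share of 50-base windows of its coding sequence that also occur in a transcript of another gene was counted. The median over the 84 genes was 89.3%, and 81 genes shared at least 1 window, mostly with processed pseudogenes. Rpl39l and Rpl3l were among those that shared none. The 16 genes with under 50% shared had a median level of 135 CPM (counts per 1000000) per kb of transcript and held 49.8% of the family's counts. The 40 genes with 50% to under 100% had a median of 23.3 CPM per kb, and the 28 genes with 100% a median of 4.57 CPM per kb and 5.07% of the counts. Of these classes 14, 29 and 6 genes passed the filter on low counts in the zone fit. Length was that of 1 transcript per gene, and long ones lower the level per kb. Rps15a, at 5179 bases, had 108 CPM but 20.8 CPM per kb. Without division by length the class medians were 104, 20.3 and 3.38 CPM.

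**Figure D1:**
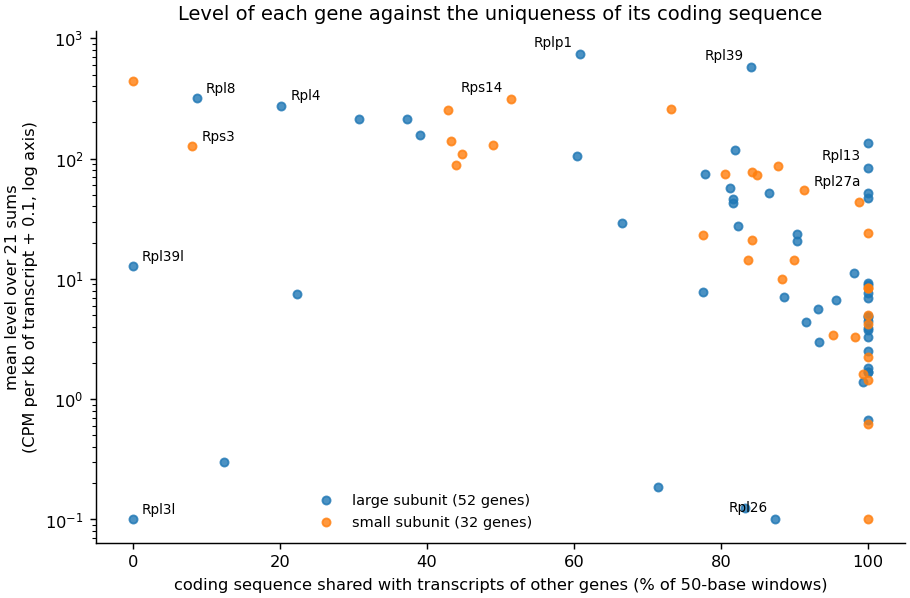
Mean level of each of the 84 genes over 21 sums of libraries (CPM per kb of transcript plus 0.1, log axis) against the percent of 50-base windows of its coding sequence found in transcripts of other genes. Genes at 100% mostly lie low (median 4.57 CPM per kb) and those under 50% mostly high (median 135 CPM per kb), with Rpl39, Rpl13 and Rpl3l among those off this pattern.

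Across the 84 genes, level per kb and the shared percentage had a Spearman rho of -0.54 and, with the level as log2(CPM per kb + 0.1), a Pearson r of -0.35. The genes share libraries and are not independent. With 100-base windows, in 83 genes, rho was -0.54 as well. How the authors' counting treated reads that map to several places is not given in the sources used here, so its part in these levels was not tested. Exceptions ran both ways. Rpl39 shared 84.1% of its windows and stood at 576 CPM per kb, and Rpl13 shared 100% and stood at 84.2, whereas Rpl3l, a muscle paralog of Rpl3, shared 0% and had 0 counts in all 68 libraries. Rpl26 shared 87.4% and also had 0 counts in all 68 libraries. For both, 3 counts of the 44225778 in these libraries would allow a level up to 0.0678 CPM, for counting error only. Rps27 had 0 counts in the tested sums and 25 in all 68 libraries, found in 5 of them. Over all 68 libraries 17 members had under 100 counts, with 3 in Rpl10l, 8 in Rpl30 and 30 in Rpl34, while 18 members were found in each of the 21 tested sums. The comparisons below are within a gene.

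Libraries held 748 to 3347722 counts. The symbols Rn45s (ribosomal RNA precursor), Lars2 and Glra2 took a large and uneven part of them, so shares are given over the counts outside these symbols. Of the 51 ethanol libraries at P2 and P28, 26 reached 100000 counts. Adding up those of 1 animal and zone gave 21 sums of 108601 to 3347722 counts. They cover 4 animals for each P2 zone and 3 for each P28 zone, with all 3 zones from animals A, D and G at P2 and from A, B and D at P28. In animal A at P28 the resting and hypertrophic sums carry different label endings and the proliferative sum holds both, so these zones may not share a mouse. In animal B at P28 the resting sum lacks a label ending that the proliferative and hypertrophic sums hold, so the same doubt applies. The hypertrophic sum of animal C at P2 held 20032 counts outside the 3 symbols, the fewest. Col10a1 and 7 other hypertrophic markers summed to 8440 to 69600 CPM in P2 hypertrophic sums against 534 to 1060 in proliferative ones, and at P28 to 66400 to 111000 against 2400 to 6930, as labelled. Resting markers summed to 755 to 2180 CPM in P2 resting against 142 to 367 in proliferative sums, and to 1700 to 1910 against 567 to 955 at P28. In P2 hypertrophic sums they reached 758 CPM, with Wif1 and Cd200 higher than in resting ones. Proliferative markers overlapped at P2, with 2230 to 5000 CPM in proliferative, 984 to 3930 in resting and 173 to 7040 in hypertrophic sums. There Mki67 (247 against 180 CPM), Top2a, Cenpf, Ccnb1 and Fmod had higher means in resting than in proliferative sums, and Cdk1, Prelp and Comp lower ones. At P28 these markers summed to 11200 to 23900 CPM in proliferative, 3560 to 6650 in resting and 3690 to 11700 in hypertrophic sums. Mki67 (118 against 88.9 CPM), Top2a, Cenpf and Cdk1 had higher resting than proliferative means at P28. Ccnb1, Prelp, Fmod and Comp had lower ones. Of other cell types, blood and marrow markers reached 764 CPM in 1 P2 hypertrophic and 781 CPM in 1 P28 resting sum, with 2.08 to 67.8 CPM in proliferative sums of both ages. Their part in the results below was not tested. The p-values below rest on the spread between these animals.

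The family took about 1.1% of the counts outside the 3 symbols. The hypertrophic zone had the lower share in every animal with tested sums of both zones. Animals without both sums went both ways. In C at P2 the hypertrophic libraries had 0.564% and 0.281%, against 0.27% and 0.185% in proliferative ones. The hypertrophic share was also higher in B at P2 (0.269% against 0.263%) and C at P28 (0.973% against 0.502%). It was lower in E (0.342% against 1.01%) and F (1.08% against 3.26%) at P2. Some of these libraries held few member counts. Hypertrophic against proliferative they were 113 and 24 against 10 and 34 in C at P2, and 11 against 7 in B at P2. They were 27 against 3 in C at P28, and 24 against 582 in E and 7 against 15 in F at P2. At P2 the share was 0.862%, 1.78% and 1.44% in the proliferative zone of animals A, D and G, and 0.399%, 0.83% and 1.01% in their hypertrophic zone. Within each animal the hypertrophic value was the lower, by 0.51 to 1.11 on the log2 scale, although the groups overlapped. At P28 animals A, B and D had 1.08%, 1.2% and 1.13% in the proliferative and 0.614%, 0.505% and 0.665% in the hypertrophic zone, and here the groups did not overlap. The group means were 1.27% ± 0.417 (SD, n = 4) and 0.7% ± 0.271 (SD, n = 4) at P2, and 1.14% ± 0.0573 (SD, n = 3) and 0.594% ± 0.0816 (SD, n = 3) at P28. Because the share is a score over chosen genes, no test was made of it. In such captured samples, fewer cells of a type and less RNA per cell cannot be told apart.

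**Figure D2:**
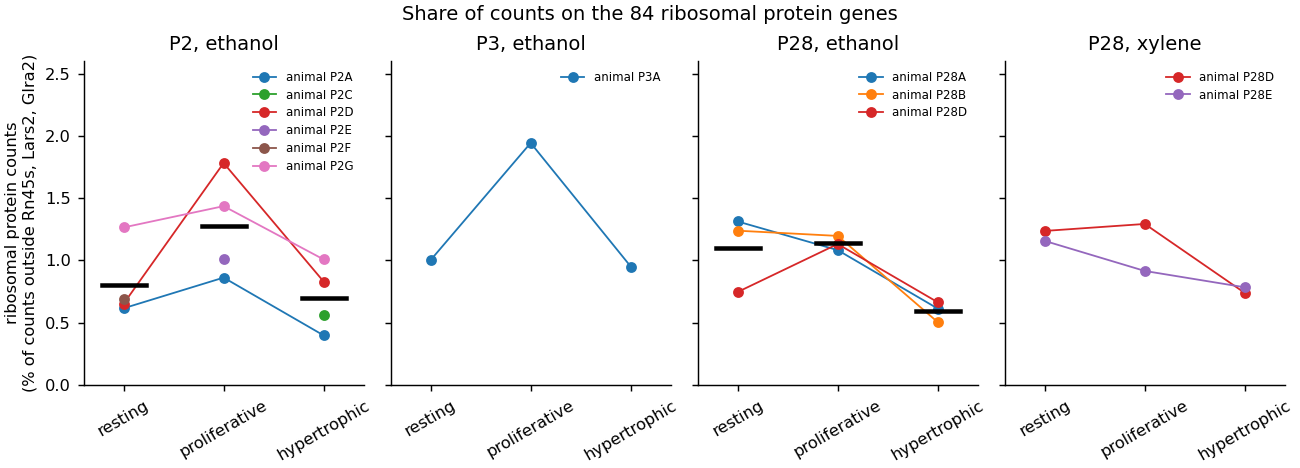
Percent of the counts outside Rn45s, Lars2 and Glra2 that fell on the 84 genes, by zone, with 1 line per animal and, for ethanol P2 and P28, black bars at the group means. Every animal with tested sums of both zones lies lower in the hypertrophic than in the proliferative zone. So do the P3 and xylene animals, from 1.94% to 0.952% at P3 and from 0.916% to 0.785% in xylene animal E as examples.

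Other features moved with the zones. Blood and marrow markers (9 in the table) summed to 12.3 to 764 CPM in P2 hypertrophic sums, with a median of 232, against a median of 14.5 CPM in proliferative ones. The 1 tested there, Beta-s (a beta globin), was higher in hypertrophic cells by 4.47 on the log2 scale (adjusted p = 0.0308, edgeR). Beta-s made up most of the hypertrophic sum, with means of 289 against 4.48 CPM. S100a8 and S100a9 were higher too, whereas Ptprc was lower (0 against 18.7 CPM) and Hba-a1, Hba-a2 and Hbb-b1 were at 0. The 6 osteoblast markers had medians of 80.2 against 4.61 CPM at P2 and of 279 against 36.7 CPM at P28. Of these Phex was the 1 tested, higher in hypertrophic cells by 7.29 at P2 (adjusted p = 0.00021, edgeR) and 5.97 at P28 (adjusted p = 0.0127, edgeR). Phex made up most of the hypertrophic sums. Sp7 went the other way, with hypertrophic against proliferative means of 0.597 against 2.31 CPM at P2 and 1.65 against 18.4 CPM at P28. So did Dmp1 at P2 (2.37 against 6.84 CPM), and Bglap and Bglap2 were at or near 0. The part of these markers in the lower share was not tested. The 3 symbols took a median of 66.7% of the counts in tested P2 hypertrophic libraries against 37.8% in proliferative ones, and 55.3% against 34.9% at P28. Matrix transcripts take a large part of what is left. When the 8 hypertrophic and 8 general chondrocyte markers were also taken out of the denominator, the hypertrophic share stayed lower than the proliferative one in the same 6 animals, by 0.22 (animal G at P2) to 1.08 (animal B at P28) on the log2 scale. As a percent of all counts it was lower by 0.93 to 2.4. Without the 5 genes with most counts the difference was 0.4 to 1.1.

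Large and small subunit genes were both lower in hypertrophic cells. In the 6 tested animals the log2 ratio of hypertrophic to proliferative shares ran from -1.21 to -0.39 for large and from -1.47 to -0.64 for small subunit genes. Gene by gene, over members with at least 10 counts in the 2 sums, the share was lower in the hypertrophic zone for 12 of 15 members in animal A, 52 of 54 in D and 51 of 66 in G at P2. At P28 it was lower for 37 of 41 members in A, 45 of 48 in B and 32 of 41 in D. Those are 77.3% to 96.3% of members. Over all genes with at least 10 counts, 53.6% to 63.8% were lower in the same animals.

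**Figure D3:**
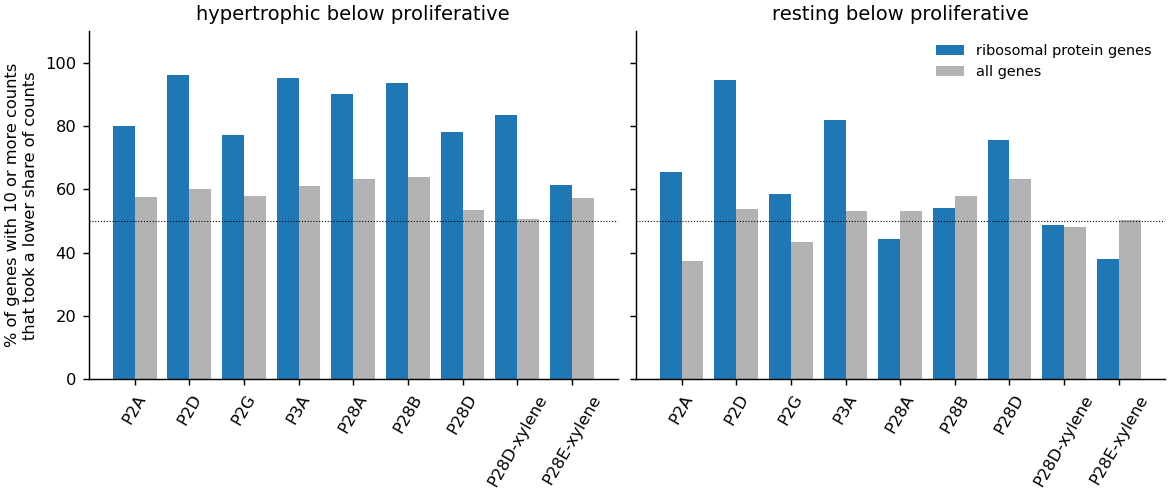
Percent of genes with 10 or more counts in the 2 sums whose share of counts was lower in the hypertrophic (left) or resting (right) zone than in the proliferative zone of the same animal, for the ribosomal protein genes (blue) and all genes (grey). In every animal the blue bar is the higher one for the hypertrophic zone (61.3% to 96.3%), whereas for the resting zone it ranges from 37.9% to 94.7%.

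Gene-level tests used edgeR's quasi-likelihood test on the 21 sums. Animals were a block, and p-values were adjusted by Benjamini-Hochberg over 6958 genes. The sums of C, E and F at P2, each the only sum of its animal, added nothing to the zone effects. The P2 zone changes and their p-values thus rested on A, D and G, while the CPM values given also cover C, E and F. Of the 84 members 49 passed the filter on low counts, and these are not a random part of the family. In hypertrophic against proliferative cells at P2, 0 of 49 members passed the adjusted threshold of 0.05, where 2.31% of all genes tested did, and 0 had an unadjusted p under 0.05. The log2 change was below 0 for 41 of 49, with a median of -0.76, while the median over all genes tested was -0.36. At P28, 0 of 49 passed (1.12% of all genes did) and 1 had an unadjusted p under 0.05. There 45 of 49 lay below 0, with a median of -0.97 against -0.52 over all genes. DESeq2 also called 0 members in both comparisons. In CPM, 18 members (36.7%) were lower in the hypertrophic zone in each of the 3 P2 animals and 31 (63.3%) in each of the 3 P28 animals, where 17.6% and 21.6% of all genes tested were.

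The power of these tests was low for single genes. In data simulated from these sums for hypertrophic against proliferative cells at P2, with 6958 genes, the test recovered 0 of 50 genes changed 4-fold, 3 of 50 changed 8-fold, 6 of 50 changed 16-fold and 25 of 50 changed 64-fold, with 1 false call. The median standard error of the members' log2 changes was 1.3 and 1.26. A miss here does not show that a gene was alike in the zones.

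Rpl4, a large subunit core protein and the member with most counts (chromosome 9, 64173375 to 64178666), had 410, 689, 427 and 969 CPM in the proliferative sums of animals A, D, E and G at P2. In hypertrophic sums of A, C, D and G it had 114, 115, 436 and 527 CPM. Each of the 3 animals with both zones was lower in the hypertrophic zone, while the groups overlapped, and the log2 change was -1.07 ± 0.74 (SE, adjusted p = 0.568, edgeR). At P28 its proliferative values were 369, 463 and 979 CPM in animals A, B and D and its hypertrophic values 209, 178 and 639 CPM, again lower in each animal (log2 change -0.87 ± 0.73, SE, adjusted p = 0.71, edgeR).

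Rps3, which sits at the messenger RNA entry (chromosome 7, 99477896 to 99483738), was among the 3 lowest members in the P2 comparison. It had 54.7, 541, 54.2 and 496 CPM in the proliferative sums of A, D, E and G and 9.49, 57.7, 108 and 369 CPM in the hypertrophic sums of A, C, D and G. The groups overlapped, and the log2 change was -1.58 ± 0.89 (SE, adjusted p = 0.433, edgeR). Rps18, with -2.85 ± 1.52 (SE, adjusted p = 0.387, edgeR), and Rpl27a, with -2.4 ± 1.38 (SE, adjusted p = 0.451, edgeR), were the others. Rps18 had 41, 98.6, 0 and 151 CPM in proliferative and 0, 0, 12.3 and 64 CPM in hypertrophic sums. At the upper end stood Rpl41, at 1.02 ± 1.16, Rpl15, at 1.14 ± 2.07, and Rpl37a, at 0.49 ± 1.5 (log2 change ± SE).

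Rpl8 is a large subunit protein near the peptidyl transferase centre (chromosome 15, 76904078 to 76906314). At P28 its values were 339, 343 and 443 CPM in the proliferative and 313, 225 and 156 CPM in the hypertrophic sums of A, B and D. These groups did not overlap, with a log2 change of -0.8 ± 0.81 (SE, adjusted p = 0.79, edgeR). At P2 its group means were 320 ± 183 and 217 ± 236 CPM (SD, n = 4 each).

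The stalk genes encode the proteins that bring elongation factors to the ribosome. Rplp1 (chromosome 9, 61913284 to 61914542) was nearly level between proliferative and hypertrophic sums at P2, with 219, 482, 183 and 374 CPM against 228, 86.5, 367 and 549 CPM and a log2 change of 0.04 ± 0.75 (SE). In animals A and G the hypertrophic value was the higher one and in D the lower. At P28 it had 458, 628 and 745 CPM in proliferative sums of A, B and D and 474, 240 and 481 CPM in hypertrophic ones (log2 change -0.6 ± 0.75, SE). Rplp0, the stalk base, was among the 3 lowest members at P28. It had 146, 158 and 510 CPM against 72.3, 78 and 59.2 CPM, groups that did not overlap, with a log2 change of -1.87 ± 0.99 (SE, adjusted p = 0.446, edgeR). At P2 its change was -0.58 ± 0.96 (SE). Rplp2 had low values, with group means of 10 to 48.5 CPM.

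**Figure D4:**
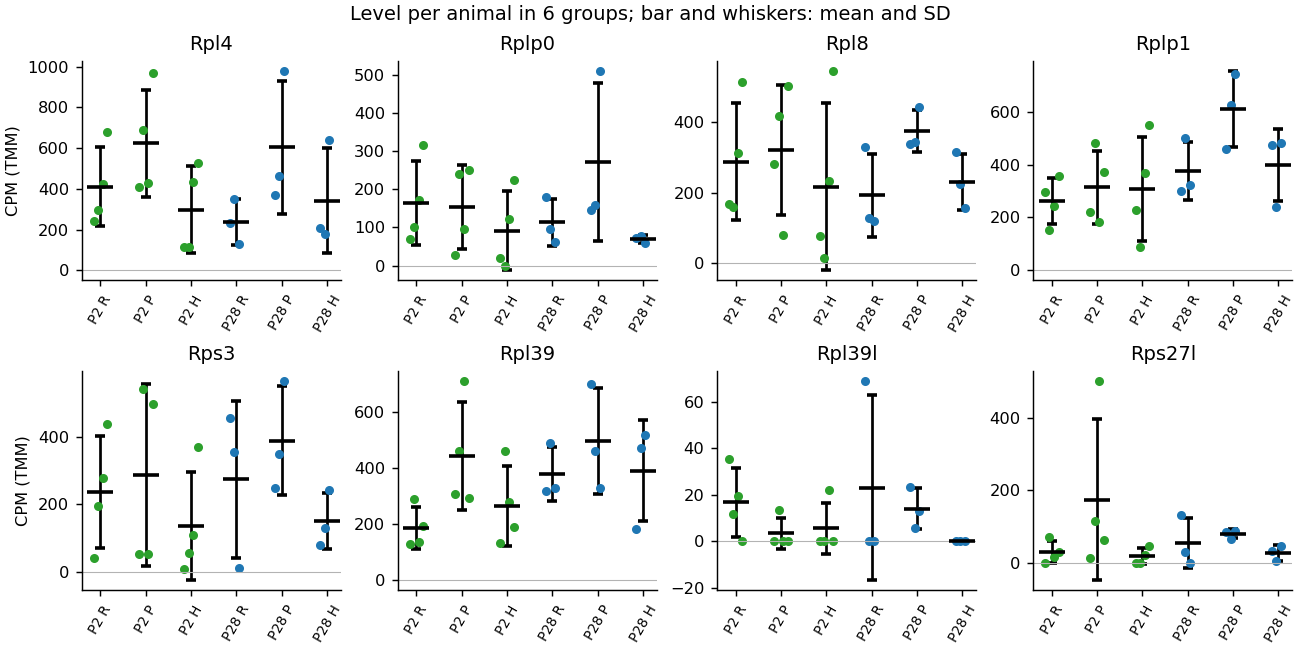
CPM (TMM-normalised) of 8 members in each animal (points; green P2, blue P28) with group mean and SD, in the resting (R), proliferative (P) and hypertrophic (H) zones. Spread between animals is as large as the difference between zones in most panels, and Rpl39l is at 0 in all P28 hypertrophic sums.

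Outside the 3 symbols resting cells had a lower share than proliferative cells in each P2 animal, and at P28 the animals did not go 1 way. At P2 the share was lower in the resting zone in each animal, with 0.616%, 0.652% and 1.27% in A, D and G against 0.862%, 1.78% and 1.44%. The size differed widely, from 0.18 lower in G to 1.45 lower in D on the log2 scale. As a percent of all counts animal A turned, with 0.449% in resting against 0.315% in proliferative cells, and G was nearly level, with 1.09% against 1.11%. Fibroblast and perichondrium markers moved with this comparison. The 7 of them summed to 924 to 6390 CPM in P2 resting sums against 366 to 1160 CPM in proliferative ones, and 2 of 6 tested were higher, Dcn by 6.08 (adjusted p = 2.31e-06, edgeR) and Col3a1 by 5.27 (adjusted p = 0.032, edgeR) on the log2 scale. Col6a3 had a lower mean in resting than in proliferative sums (95.3 against 120 CPM). The part of these fibroblast and perichondrium markers in the lower share was not tested. In the fit 0 of 49 members passed (0.259% of all genes did), also with DESeq2 and at an unadjusted p under 0.05. The log2 change was below 0 for 39 of 49, with a median of -0.8 against 0.15 over all genes tested. In CPM 23 members (46.9%) were lower in each of the 3 animals, where 10.7% of all genes were. Without animal G, whose resting library is in doubt, the median was -1, and without animal D, which may be a pool, it was -0.49, with 0 members passing in either.

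At P28 the resting share was 1.31%, 1.24% and 0.747% in animals A, B and D, against 1.08%, 1.2% and 1.13% in proliferative cells. It was 0.28 higher in A, 0.05 higher in B and 0.6 lower in D on the log2 scale. Animal B turned to 0.1 lower with the cartilage markers out of the denominator, and as a percent of all counts it had 0.756% in resting against 0.822% in proliferative cells. The hypertrophic markers summed to 8880 CPM in 1 P28 resting sum, above all 3 proliferative sums (2400 to 6930 CPM), and to 828 and 872 CPM in the others. Fibroblast and perichondrium markers went the other way than at P2, with 268 to 1440 CPM in resting against 1180 to 2510 CPM in proliferative sums. The part of these markers in the resting values was not tested. Again 0 of 49 members passed (0.561% of all genes did), also with DESeq2, and 0 had an unadjusted p under 0.05. Although 43 of 49 lay below 0, the median of -0.74 was close to that of all genes, -0.81. RLE scaling in place of TMM moved both medians, to -0.17 and -0.24, and left 32 of 49 below 0. The distance between the family and all genes was 0.08 with TMM and 0.07 with RLE. RLE also moved the median over all genes from -0.27 to 0.12 for resting against hypertrophic cells at P28, where members below 0 went from 36.7% to 20.4%. In proliferative cells between the ages they went from 37% to 47.8%.

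No gene at the ends of these comparisons passed the threshold. For resting against proliferative cells at P2 the lowest were Rps15 (-1.46 ± 0.99), Rps18 (-2.02 ± 1.4) and Rpl37 (-1.84 ± 1.35), and the highest Rpl39l (1.84 ± 1.93), Rpl7l1 (1.13 ± 1.65) and Rpl22 (0.42 ± 1.07), as log2 changes ± SE. At P28 the lowest were Rpl36al (-2.96 ± 1.81), Rpl4 (-1.11 ± 0.75) and Rps3a1 (-3.28 ± 2.27), and Rpl27a (2.75 ± 1.51) and Rpl22l1 (0.37 ± 1.23) were among the highest. In no case was the adjusted p under 0.504 (edgeR).

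Rpl27a, a large subunit protein, showed how 1 sum can carry such a value. Its resting values at P28 were 0, 96.4 and 735 CPM in animals A, B and D, against 21.2, 22.6 and 4.32 CPM in proliferative cells. The value of animal D rested on 189 counts and stood far above the other sums. Without animal D the log2 change between resting and proliferative cells was 0.66 in place of 2.75.

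Resting and hypertrophic cells were compared directly as well. At P2, 0 of 49 members passed (3.77% of all genes did), with 0 by DESeq2 and 0 at an unadjusted p under 0.05, and 26 lay above 0. The median was 0.09, against 0.52 over all genes. At P28, 0 of 49 passed (1.77% of all genes did) and 0 had an unadjusted p under 0.05, with 31 above 0 and a median of 0.6 against -0.27 over all genes. With Rpl7, at 2 counts in resting and 0 in hypertrophic cells, left out and Rpl39l at its bound, the median was 0.49. DESeq2 called 1 member there, the small subunit gene Rps15a, higher in resting cells by 2.03 on the log2 scale (adjusted p = 0.0208). The median turned to -0.28 without animal A and was -0.01 without animal B, so its direction rests on these animals. In shares of counts the resting value was the higher one in all 3 P28 animals, by 0.17 to 1.29 on the log2 scale, and at P2 in animals A and G but not in D. In animal D at P28 it was 0.28 lower with the cartilage markers out of the denominator. There the small subunit genes alone were 0.62 lower, and 55.3% of the members with at least 10 counts were lower in the resting zone.

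At the ends of these lists, the highest at P2 were Rpl27a (1.83 ± 1.42), Rpl7l1 (2.12 ± 1.71) and Rpl22l1 (1.24 ± 1.2), and the lowest Rpl41 (-1.82 ± 1.16), Rpl32 (-1.37 ± 1.05) and Rps15 (-1.28 ± 0.99), as log2 changes ± SE. At P28 Rpl27a (2.77 ± 1.46) and Rpl37a (2.8 ± 1.79) stood at the upper end with Rpl39l, and Rpl35a (-3.85 ± 2.17), Rpl36al (-3.24 ± 1.86) and Rps6 (-2.5 ± 1.88) at the lower end. Rps6, the substrate of S6 kinase in the small subunit, shares all its coding windows with copies and had 161 counts over the 21 sums. In hypertrophic against proliferative cells at P28, Rpl35a (1 ± 1.72), Rps6 (0.82 ± 2) and Rpl22l1 (0.24 ± 1.21) were the highest and Rpl22 (-1.91 ± 1.07) the third lowest, after Rpl39l and Rplp0.

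**Figure D5:**
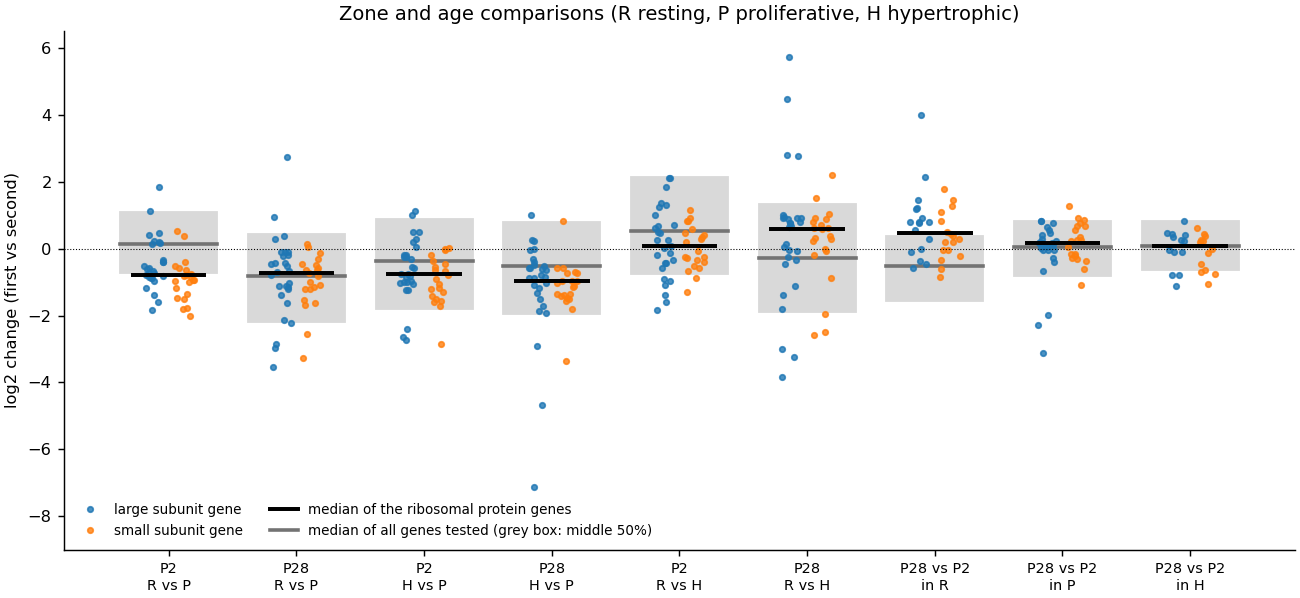
Fitted log2 changes of the members tested in 6 zone and 3 age comparisons (points; blue large, orange small subunit), with their median (black) and the median and middle 50% of all genes tested (grey). Against proliferative cells most members lie below 0 in both other zones at both ages (medians -0.97 to -0.74), while the grey medians run from -0.81 to 0.15.

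Deposit sets were the one batch the labels show, as libraries with and without a coded description. The sums of animals F and G at P2 and D at P28 belong to the set without, which has too few sums to be fitted alone. Within the other set the medians were -1.01 for hypertrophic and -1 for resting against proliferative cells at P2, and -1.01 and -0.3 at P28, with 0 members passing. The share of counts per animal, given above, is itself within a set.

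Between the ages no member passed within any zone. In proliferative cells 0 of 46 members passed (0.679% of all genes did), with 29 above 0, a median of 0.17 (P28 against P2) and 0.04 over all genes. In hypertrophic cells 0 of 26 passed (0.102% of all genes did) with 13 above and 13 below 0, and both medians were 0.09. In resting cells 0 of 34 passed (0.872% of all genes did), with 24 above 0 and a median of 0.47 against -0.53 over all genes. That median was -0.3 without animal A at P28 and -0.08 without animal A at P2, so its direction turned on leaving out either of them. An unadjusted p under 0.05 was found for 1 member in resting and 0 in the other cells, and DESeq2 called 0 in all 3. The 1 member was Rpl27a, at 3.99 ± 1.76 (SE, adjusted p = 0.434, edgeR), and without animal D at P28 its value was 0.71.

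The other ends of the age comparisons had adjusted p of at least 0.589 (edgeR). In resting cells Rps9 (1.77 ± 0.99) and Rpl13a (1.46 ± 0.95) followed Rpl27a, and Rpsa (-0.62 ± 1.14) and Rpl4 (-0.46 ± 0.88) were among the lowest, as log2 changes ± SE. In proliferative cells Rplp1 (0.84 ± 0.7), Rps20 (0.85 ± 0.77) and Rps21 (1.27 ± 1.24) were the highest and Rpl10 (-3.13 ± 1.67), Rpl27a (-1.97 ± 1.36) and Rpl7 (-2.29 ± 1.59) the lowest. In hypertrophic cells the ends were Rpl22l1 (0.84 ± 1.19), Rps2 (0.61 ± 1.13) and Rplp1 (0.41 ± 0.83), and Rps15 (-1.05 ± 1.01), Rpl41 (-1.11 ± 1.1) and Rpl32 (-0.78 ± 1.13). The ages share no animals, and sex and litter cannot be fully told apart from age.

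Whether a zone effect differed between the ages was tested as an interaction. For resting against proliferative cells 0 of 49 members passed (0.144% of all genes did), and for hypertrophic against proliferative cells 0 of 49 (0.0% of all genes did). Neither contrast had a member with an unadjusted p under 0.05, and DESeq2 called 0. The median difference, P28 minus P2, was -0.18 for the hypertrophic effect, where all genes had -0.24. For the resting effect it was 0.0, where all genes had -0.98.

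The order of the members was much alike in all groups. Over the 49 genes in the fit, the Spearman rho between group means in CPM ran from 0.77 (P2 hypertrophic with P28 resting) to 0.93. Sums of 1 animal enter several groups, and transcript length and copies are the same in each, so this is a description. Of the 49, 33 had their highest group mean in proliferative cells (8 at P2 and 25 at P28) and 0 had their lowest there. The same count was not made over all genes. Of all genes tested, 66.4% at P28 and 45% at P2 had log2 changes below 0 in resting against proliferative cells. For hypertrophic against proliferative cells these were 60.4% and 57.1%, so the count is not read as a trait of the family.

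Paralogs were unequal in level, in opposite ways in the 2 pairs shown. Rpl39 was among the most abundant members, with group means of 188 to 498 CPM. Its values in proliferative cells were 308, 463, 712 and 296 CPM in A, D, E and G at P2 and 703, 464 and 328 CPM in A, B and D at P28. Rpl39l was found in 9 of 21 sums with 125 counts. It had 35.5, 11.8, 19.4 and 0 CPM in the resting cells of A, D, F and G at P2, and 68.8, 0 and 0 CPM in those of A, B and D at P28. In proliferative cells it had 13.5 CPM in animal D and 0 in A, E and G at P2, and 23.5, 5.66 and 13 CPM at P28. In hypertrophic cells it had 22.2 CPM in animal D at P2 and 0 in the other 3 P2 sums and in all 3 P28 sums. At P28 it had 21 counts in proliferative and 0 in hypertrophic cells. With a floor of 3 counts over the group it was at least 3.82-fold lower in hypertrophic cells, for counting error only. Its unadjusted p was 0.0298 and its adjusted p 0.35 (edgeR). Values moved with the animal as much as with the zone.

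In the Rps27 pair the paralog held the counts. Rps27l had 957 counts over the 21 sums, with 13.7, 116, 502 and 62.7 CPM in proliferative cells of A, D, E and G at P2 and 84.6, 65.6 and 88.6 CPM at P28. The 502 CPM of animal E rested on 74 counts. Hypertrophic values were 0, 0, 22.2 and 45.9 CPM in A, C, D and G at P2 and 32.1, 3.12 and 44.4 CPM at P28, which did not overlap with the proliferative ones at that age (log2 change -1.81 ± 1.26, SE, adjusted p = 0.617, edgeR). All coding windows of Rps27 occur in other transcripts, among them Rps27rt and the processed pseudogene Gm17241, against 49% of those of Rps27l.

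In the other pairs no member passed in any comparison. Rpl22 and Rpl22l1, whose proteins are close relatives in the large subunit, had log2 changes of -1.91 ± 1.07 and 0.24 ± 1.21 (SE) in hypertrophic against proliferative cells at P28, and of -0.2 ± 1.04 and -1.03 ± 1.24 at P2. The order of these changes was opposite at the 2 ages, and the difference between the genes was not tested. Rpl36al had 446 counts and Rpl36a, with all its coding windows copied elsewhere, 16. Rpl7l1 had 524 counts and Rpl7 434. Rpl10 had 108 counts, Rpl10l 2, Rpl3 316 and Rpl3l 0. Rps4x, at -0.64 ± 1.79 at P2 and -3.35 ± 2.14 at P28, had no paralog in the table.

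Other genes of translation were read from lists chosen with these data already known. Of 16 tested genes for elongation factors and other TOP messenger RNAs, 0 passed in any zone or age comparison. Hypertrophic against proliferative medians were -0.3 at P2 and -0.64 at P28, with 9 and 12 of 16 below 0. All genes tested had medians of -0.36 and -0.52, with 57.1% and 60.4% below 0. The largest values were those of Nap1l1 (-2.92 ± 1.69) and Vim (-1.94 ± 0.93) at P2, and of Eif3l (-2.18 ± 1.5) and Nap1l1 (-1.72 ± 1.53) at P28. Of 20 tested initiation factors 0 passed, with medians of 0.1 and -0.54. There Eif4a2 (-2.35 ± 1.47) and Eif4h (1.68 ± 1.09), and Eif3g (-3.35 ± 1.5) and Eif1ax (3.15 ± 1.38), had the largest values, in both directions.

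Ribosome production genes were lower in hypertrophic cells by their medians, with no single gene passing. Of 28 tested assembly factors 25 lay below 0 at P2 and 24 at P28, with medians of -1.34 and -1.35, where all genes had -0.36 and -0.52. Rrs1, needed for large subunit assembly, had -7.07 ± 2.81 (SE, adjusted p = 0.185, edgeR) at P2 and -5.95 ± 2.55 (adjusted p = 0.31, edgeR) at P28. Tsr1 had -4.26 ± 2.1 at P2 and Utp14a -6.37 ± 3.6 at P28. Of 9 tested genes of RNA polymerase I, which makes ribosomal RNA, 6 lay below 0 at each age, with medians of -1.87 and -1.14. Of 16 tested genes of mTOR and TOP control, 11 and 13 lay below 0, with medians of -0.91 and -0.66. Eif4ebp1 had -3.24 ± 2.1 at P2 and Rheb, the activator of mTOR, -8.17 ± 2.96 (SE, adjusted p = 0.188, edgeR) at P28. Fitted changes of this size come from genes with few or no counts in a group and are no bound. Gnb2l1, the small subunit scaffold RACK1, had -0.78 ± 0.81 at P2 and -2.17 ± 0.81 (SE, adjusted p = 0.203, edgeR) at P28.

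Resting against proliferative medians of the same lists were -0.68 (elongation and TOP), -0.13 (initiation), -0.46 (assembly), -0.39 (polymerase I) and 1.04 (mTOR control) at P2. At P28 they were -0.57, -0.94, -1.29, -1.8 and -1.38, where all genes had -0.81. In these comparisons too 0 genes of the lists passed, and the genes with the largest values at P28 were Eif4e (-7.87 ± 2.94) and Rrs1 (-8.98 ± 3.44).

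The P3 animal and the xylene-fixed sections were outside these fits. At P3 the share was 1% in resting, 1.94% in proliferative and 0.952% in hypertrophic cells. Of 64 members with at least 10 counts 61 were lower in the hypertrophic than in the proliferative library, and of 72 members 59 were lower in the resting library. Per 1000000 counts outside the 3 symbols, a scale that differs from the CPM above, Rpl4 had 718, 1869 and 655 in the resting, proliferative and hypertrophic zones. This animal had no replicate.

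Xylene-fixed sections gave deeper sums, of 631447 to 7401383 counts, from 2 animals. Animal D had shares of 1.24%, 1.29% and 0.739% in the resting, proliferative and hypertrophic zones, and animal E 1.16%, 0.916% and 0.785%. The hypertrophic value was again below the proliferative one in both, by 0.81 and 0.22 on the log2 scale. With the cartilage markers out of the denominator it was 0.84 lower in D and 0.04 higher in E, and as a percent of all counts 0.81 lower in D and 0.03 higher in E. The resting share was below the proliferative one in D and above it in E. In the edgeR fit of these 2 animals 0 of 62 members passed for hypertrophic against proliferative (0.453% of all genes did), for resting against proliferative (0.34%) or for resting against hypertrophic cells (1.46%), with 0, 1 and 1 at an unadjusted p under 0.05. The medians of -0.1, -0.16 and -0.12 stood beside -0.06, -0.13 and -0.14 over all genes.

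Rpl39l was the 1 member with an unadjusted p under 0.05 in both xylene comparisons of resting cells. Its level per 1000000 counts outside the 3 symbols was 0 in the resting sums of both animals, 29.1 in D and 50.4 in E in proliferative cells, and 76.8 and 11.6 in hypertrophic cells. With a floor of 3 counts over the group, resting cells were at least 16.7-fold lower than proliferative and at least 28.1-fold lower than hypertrophic cells (adjusted p = 0.257 and 0.112, edgeR). These bounds pool libraries and cover counting error only. In animal D 1 proliferative library (1200394 counts outside the 3 symbols) and 1 hypertrophic library (966336) also held 0 Rpl39l counts, at depths like that of its deepest resting library (964498). Of the 415 hypertrophic counts 368 came from 1 library, and without it the bound was 4.59-fold. Of the 160 proliferative counts 84 came from 1 library, and without it the bound was 11.5-fold. In the ethanol sections the resting cells of 4 animals held Rpl39l counts. The 2 fixations share only animal D, whose resting sums held none in either.

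For animal D at P28, which gave both fixations, the hypertrophic share was 0.665% in ethanol and 0.739% in xylene sections, the proliferative share 1.13% and 1.29%, and the resting share 0.747% and 1.24%. With 1 animal this comparison has no replicate.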

How the data were processed

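The authors deposited raw counts per gene symbol in 100 columns, whole numbers per the file headers and values. Tools in the submitters' processing notes are STAR 2.5.2b, cutadapt, Subread and featureCounts 1.5.3, with build mm10. Which annotation and strand setting were used, and how reads with several matches were treated, is not stated in the labels. Of 68 titles, 32 have 2 columns, which were summed as repeat runs. Ethanol libraries with at least 100000 counts were summed per animal and zone and tested with edgeR 4.0.16 (TMM, filterByExpr, robust quasi-likelihood F-test, Benjamini-Hochberg threshold 0.05) in R 4.3.3, with the animal as a block for zones (8 residual degrees of freedom) and age plus deposit set within a zone (4). DESeq2 1.42.0 was an alternative. Pairing comes from the animal in the labels; deviations from group means of zones of the same animal correlated by -0.00358 to 0.187. The fits were tested on simulated data. Standard errors are the log2 change over the root of F. CPM are TMM-normalised unless stated. The members and lists were chosen with earlier results of these data known. Named are, per comparison, the 3 highest and 3 lowest members by signed root F, the 5 with most counts, those with 0 counts, the paralog pairs and the 2 largest changes of each translation list; a few further members (Rplp2, Rpl13, Rps15a) were chosen after their values were seen. A few genes that the rule names are not reported here. Copies were searched in GENCODE vM21 transcripts (GRCm38), start windows in RefSeq (GRCm38.p6). Precision covers counting error and the few animals per group.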

Additional observations from a re-analysis of the deposited data

Results flagged for a closer look

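Samples standing apart in groups of 4 to 10 were looked for in 62 sets of values, where chance alone flags about 1 in 20, and 7 were found. The family's share of counts in the resting sum of animal G at P2, 1.27%, stood above the other 3 (0.616% to 0.694%). Rpl39l had 13.5 CPM in the proliferative and 22.2 CPM in the hypertrophic sum of animal D at P2, with 0 in the other 3 sums of each zone. Rpl7 was at 0 in the proliferative sum of animal E at P2, and at 26.3 CPM in the hypertrophic sum of animal G with 0 in the others. Rpl36a had 10.9 CPM in the resting sum of animal A at P2, from 4 counts, and 0.478 CPM in the hypertrophic sum of animal G, from 1 count.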

How the results depend on the processing

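The number of members passing the threshold stayed at 0 in 183 of 184 alternatives over the zone, age and interaction comparisons, the exception being DESeq2 with 1 for resting against hypertrophic cells at P28. Without the replicate block, which pairs zones by animal, it was 0 in all zone and interaction comparisons. The alternatives include leaving out C, E or F at P2, which add nothing to the blocked zone effects. With the low power of the test a steady 0 shows little. Of 150 alternative medians 148, and of 18 alternative mean shares 11, moved by less than the spread between animals. Without a filter on low counts the hypertrophic against proliferative median at P28 was -1.22, and leaving out 1 animal at a time gave -0.28 to 0.91 for resting against hypertrophic cells at P28. As a percent of all counts the mean shares were 0.847% (P2) and 0.669% (P28) in proliferative, 0.28% and 0.221% in hypertrophic and 0.642% and 0.683% in resting cells, and the order of resting and proliferative cells turned in animal A at P2 and B at P28, since the denominator then holds Rn45s, Lars2 and Glra2. Outside the cartilage markers too, a denominator chosen after seeing the data, the P28 means were 1.53% in proliferative and 0.878% in hypertrophic cells. The fit within deposit set A and the bounds of Rpl39l without 1 xylene library were also added after seeing the data. By the simulation the test had power only for very large changes of single genes, and 35 members were too low to test in the zone fit.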
